A study of Mus musculus with 6 samples.

Results

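The myogenic and MEF2 transcription factors described here are 9 genes, Myod1, Myf5, Myf6, Myog, Pax7, Mef2a, Mef2c, Mef2d and Six4, taken by symbol from a gene count table of 24411 genes. All 9 passed the filter on low counts and were among the 12892 genes tested. RNA was sequenced from whole extensor digitorum longus (EDL), a fast hindlimb muscle, of C57BL/6J mice aged 50 weeks. The 3 mAktDKO mice were Mlc1f-Cre:Akt1/2-floxed, and the 3 control mice were Akt1/2-floxed without Cre, so that the floxed alleles were shared and the Cre allele was carried by mAktDKO mice only. By the study's methods the animals were male unless otherwise stated. Cre is driven by the promoter of a myosin light chain found mostly in fast-twitch fibres. By the study's account this promoter has little activity in satellite cells, the cells that Pax7 marks, and Akt was suppressed less completely in slow-twitch muscle. The question asked of these genes is how their transcripts differ when Akt1 and Akt2 are deleted in skeletal muscle.

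MyoD, Myf5, myogenin and MRF4 (encoded by Myf6) are the myogenic regulatory factors (MRFs), basic helix-loop-helix proteins that pair with E proteins and bind E-boxes in muscle genes. Pax7 marks satellite cells, the resident stem cells of muscle, which also transcribe Myf5. MyoD drives commitment and myogenin drives terminal differentiation, while MRF4 is the main MRF of adult fibres. MEF2 proteins are MADS-box factors that work with the MRFs and are held back by class IIa histone deacetylases, and Six4 is a homeodomain factor that acts with EYA cofactors on fast-fibre genes and on Myog.

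Library totals were 13738803 to 15445514 estimated counts, and 3 counts, the level taken as the floor, corresponded to 0.194 to 0.218 CPM, the count scaled to library size. Akt2 was at 51.3, 49.1 and 52.7 CPM in the mAktDKO mice and at 172, 133 and 143 CPM in the controls, a log2 fold change of -1.55 (SE 0.11, adjusted p = 0.000923 by edgeR's quasi-likelihood test). Akt1 differed by -0.25 (SE 0.080, adjusted p = 0.115 in the same test), and a count per gene does not show whether a floxed exon is missing. The fast myosin Myh4 was at 47045 to 52960 CPM in mAktDKO muscle and at 47022 to 55567 CPM in control muscle, whereas 7 slow-fibre markers summed to at most 1317 CPM in any mouse. B cell markers were near the floor, with 4 genes summing to 0.151 to 0.480 CPM. Control mouse 2 stood furthest from the other libraries, with a chi-square per degree of freedom of 25.4 to 26.2 against the other controls, which differed from each other by 10.2. In whole muscle, fewer cells of a type and less RNA per cell cannot be told apart.

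Of the 9 factors, 0 passed an adjusted p of 0.01 in edgeR's quasi-likelihood test, against 0.0233% of all genes tested. At an adjusted p under 0.05 edgeR also called 0 of them, against 1.18% of all genes, but without the filter on low counts Myog had an edgeR adjusted p of 0.0427. DESeq2's Wald test at 0.01 called 1 of them, Myog, as higher, where it called 3.15% of the genes to which it gave an adjusted p, 0.814% as higher and 2.34% as lower. DESeq2 gave no adjusted p to Myf5, so its count is over 8 factors. An unadjusted edgeR p under 0.05 was reached by 3 factors (33.3%), Myog, Myf5 and Mef2d, against 24.5% of all genes, and this count was 1 without mAktDKO mouse 1 or 2 and 2 without mAktDKO mouse 3. Without control mouse 2 the count stayed at 3, but the factors were Myog, Myf6 and Six4. Without control mouse 4 it was also 3, with Myog, Mef2d and Myod1. With libraries scaled by their totals alone they were Myog, Myf5 and Mef2a. The mAktDKO and control mice did not overlap in CPM for 4 factors (44.4%), against 31.1% of all genes, with 3 factors higher in every mAktDKO mouse, as were 14.6% of all genes, and 1 lower, as were 16.6%. The fold change was positive for 6 factors and negative for 3, and the median log2 fold change was 0.084, against 0.017 over all genes. With single mice left out this median ran from 0.014 (without control mouse 4) to 0.21 (without control mouse 2), and its gap to the median of all genes from -0.0041 to 0.19.

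**Figure D1:**
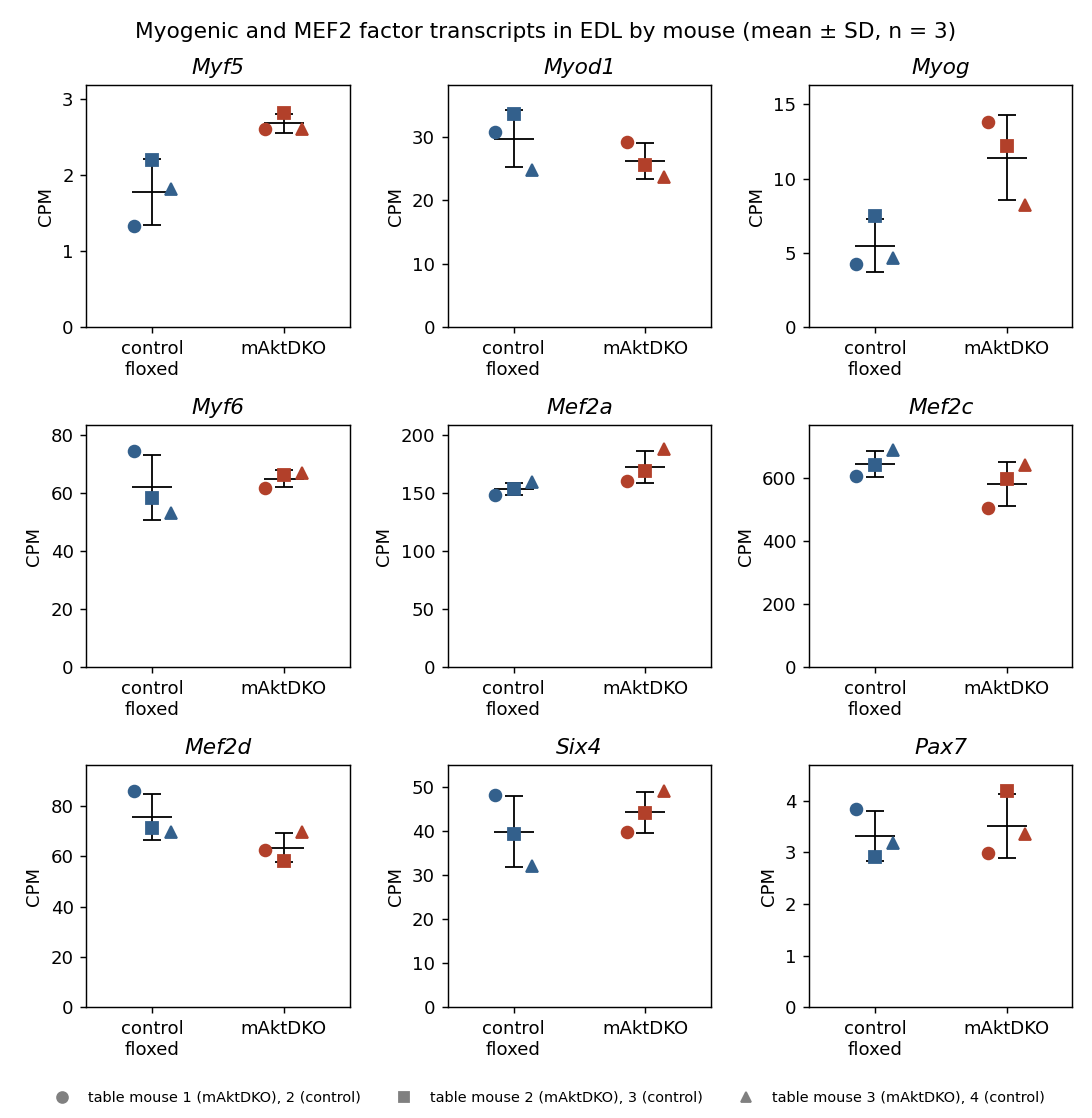
CPM of each of the 9 factors in every mouse (y axes from 0), with control mice in blue and mAktDKO mice in red; lines and bars are means and SD (n = 3). Myog, Myf5 and Mef2a are higher in every mAktDKO mouse than in any control, and Mef2d is lower, while symbol shapes tell apart mice of 1 group and pair no mice across groups.

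Myog (ENSMUSG00000026459.5, chr1:134289989-134292548, plus strand, GRCm38), which encodes myogenin, showed the largest difference of the 9. It was at 13.8, 12.2 and 8.23 CPM in mAktDKO mice 1, 2 and 3 (218, 204 and 120 counts). In control mice 2, 3 and 4 it was at 4.26, 7.51 and 4.69 CPM (61, 103 and 62 counts). Every mAktDKO mouse was above every control, although mAktDKO mouse 3 and control mouse 3 lay close together. The means were 11.4 ± 2.88 and 5.49 ± 1.77 CPM (SD, n = 3), a 2.08-fold difference. By edgeR's quasi-likelihood test the log2 fold change was 1.06 (SE 0.25, 95% interval 0.49 to 1.63) with an adjusted p of 0.0642, and DESeq2 gave 1.05 (SE 0.26) with an adjusted p of 0.00373. In size this difference lay at percentile 98.9 of all genes tested.

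The stretch before the Myog start is shown because its motifs are those of the factors described here. It is from RefSeq (GRCm38.p6), chr1:134289754-134289988 on the plus strand, with capitals marking an E-box (CANNTG), the letters TCAGGTT of a MEF3 motif, which Six4 binds, and the letters CTANNNNTA of a MEF2-type motif.
Myog promoter: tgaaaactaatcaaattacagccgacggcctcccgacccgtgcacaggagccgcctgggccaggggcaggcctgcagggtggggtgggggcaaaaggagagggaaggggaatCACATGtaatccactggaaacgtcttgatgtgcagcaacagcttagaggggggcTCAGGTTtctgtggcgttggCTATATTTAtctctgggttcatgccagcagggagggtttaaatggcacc
Counted from the RefSeq start, the E-box CACATG begins at -138, TCAGGTT at -84 and CTATATTTA at -64, with no overlap between them, and a further E-box at -12 lies beyond the printed stretch. With TCAGGTT and CTANNNNTA searched on both strands and CANNTG reading as itself on either, 66.2% of 32851 windows of 250 bases held an E-box, 19.0% held CTANNNNTA and 3.49% held TCAGGTT. The stricter MEF2 consensus was held by 2.92% of windows and by 0 of the 10 windows of these factors, Myog included. All 3 were held by 0.527% of windows, and among the 10 windows of the 7 factors with an entry by 1, that of Myog. A match is a run of letters and not evidence of binding.

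Slow-fibre transcripts differed between mice of 1 group in part as Myog did. Myh7, the slow myosin heavy chain, was at 525, 637 and 269 CPM in mAktDKO mice and at 168, 368 and 233 CPM in controls. Tnni1, slow troponin I, was at 28.0, 33.5 and 16.7 CPM against 10.3, 21.2 and 12.6 CPM. For both genes, as for Myog, mAktDKO mouse 3 was the lowest of its group, control mouse 3 the highest and control mouse 2 the lowest of theirs, but the groups overlapped. The same mice held these places for the slow-fibre markers Tnnc1, Tnnt1 and Myl3. Atp2a2 was instead lowest in control mouse 4 (221 CPM). Myl2 was highest in control mouse 2, at 98.3 CPM against 52.5 and 46.6 CPM in the other controls, with a log2 fold change of -0.11. Of 7 slow-fibre markers 6 had a positive fold change and 0 were called by edgeR or DESeq2. An unadjusted edgeR p under 0.05 was reached by 2 of the 7, against 24.5% of all genes. The 7 markers summed to 680 to 1317 CPM in mAktDKO mice and 607 to 884 CPM in controls. Among controls this sum was lowest in mouse 4 and highest in mouse 3. In the sums of 2 other lists mAktDKO mouse 3 and control mouse 2 were the lowest of their groups, as for Myog. Control mouse 3 was the highest control in both. Macrophage markers summed to 94.5, 90.0 and 72.4 CPM in mAktDKO mice and to 46.8, 80.9 and 73.5 CPM in controls. Satellite cell markers summed to 94.1, 96.7 and 81.4 CPM against 74.9, 89.0 and 83.8 CPM. The part of any of these lists in the Myog difference was not tested.

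Myf5 (ENSMUSG00000000435.1, chr10:107482908-107486134, minus strand) was at 2.6, 2.82 and 2.61 CPM in mAktDKO mice, from 38 to 47 counts. It was at 1.33, 2.189 and 1.81 CPM in control mice, from 19 to 30 counts. All mAktDKO mice were above all controls, and the mAktDKO values lay within a narrow range. The log2 fold change was 0.59 (SE 0.24, 95% interval 0.041 to 1.14), and its adjusted p of 0.179 in edgeR's quasi-likelihood test did not pass. Without control mouse 2 it was 0.41.

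Pax7 (ENSMUSG00000028736.13, chr4:139737062-139833528, minus strand) was at 2.98, 4.19 and 3.36 CPM in mAktDKO mice and at 3.85, 2.92 and 3.18 CPM in controls. The groups overlapped throughout, and the log2 fold change of 0.084 (SE 0.21, 95% interval -0.39 to 0.55, edgeR adjusted p = 0.828) left both a decrease and an increase within its interval. Over 9 satellite cell markers that include Pax7 and Myf5, 8 had a positive fold change and 0 were called by edgeR or DESeq2. Their sum was 81.4 to 96.7 CPM in mAktDKO mice and 74.9 to 89.0 CPM in controls. Of the 9, 3 had an unadjusted edgeR p under 0.05, against 24.5% of all genes. Of these, 2 were higher and 1 lower, where 11.4% of all genes were higher and 13.1% lower. The lower gene, Cdh15, which encodes M-cadherin, had the smallest p of the list, at 14.7, 15.9 and 14.4 CPM in mAktDKO mice and 24.3, 18.6 and 17.2 CPM in controls (-0.42, SE 0.14, edgeR adjusted p = 0.122). It was lower in every mAktDKO mouse, and -0.25 without control mouse 2. The ratio of Myf5 to Pax7 counts was 0.872, 0.671 and 0.776 in mAktDKO mice and 0.345, 0.75 and 0.571 in controls, and the groups overlapped (exact permutation p = 0.2, two-sided).

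Myod1 (ENSMUSG00000009471.4, chr7:46376474-46379099, plus strand), the commitment factor, was at 29.2, 25.5 and 23.7 CPM in mAktDKO mice and at 30.8, 33.6 and 24.8 CPM in controls. Its log2 fold change was -0.18 (SE 0.13, 95% interval -0.48 to 0.11, edgeR adjusted p = 0.399). The groups overlapped, with control mouse 4 inside the mAktDKO range.

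Myf6 (ENSMUSG00000035923.4, chr10:107492853-107494737, minus strand) lies 6718 bp from Myf5 on the same strand. It was at 61.7, 66.4 and 67.1 CPM in mAktDKO mice and at 74.7, 58.2 and 53.2 CPM in controls. The controls spanned the mAktDKO values on both sides, and the log2 fold change was 0.068 (SE 0.12, 95% interval -0.21 to 0.35, edgeR adjusted p = 0.761).

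Ratios of counts within a mouse do not depend on scaling between libraries; those given here were chosen after the values were seen. The Myog to Myod1 ratio was 0.473, 0.479 and 0.347 in mAktDKO mice and 0.139, 0.224 and 0.189 in controls. Every mAktDKO mouse was above every control, at the smallest exact permutation p that 3 mice against 3 allow (p = 0.1, two-sided). The Myog to Myf6 ratio was 0.224, 0.184 and 0.123 in mAktDKO mice and 0.0571, 0.129 and 0.0882 in controls, and the groups overlapped (exact permutation p = 0.2). Per kilobase of the longest transcript, Myog made up 12.3%, 10.8% and 7.58% of the 4 MRF transcripts in mAktDKO mice and 3.6%, 7.16% and 5.28% in controls. Myf6 was the main MRF transcript in both groups, at 69.2% ± 4.03 and 70.4% ± 4.54 (SD, n = 3), and the summed MRF level overlapped between the groups, at 74.5 ± 1.67 and 69.6 ± 9.88 CPM per kb.

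**Figure D2:**
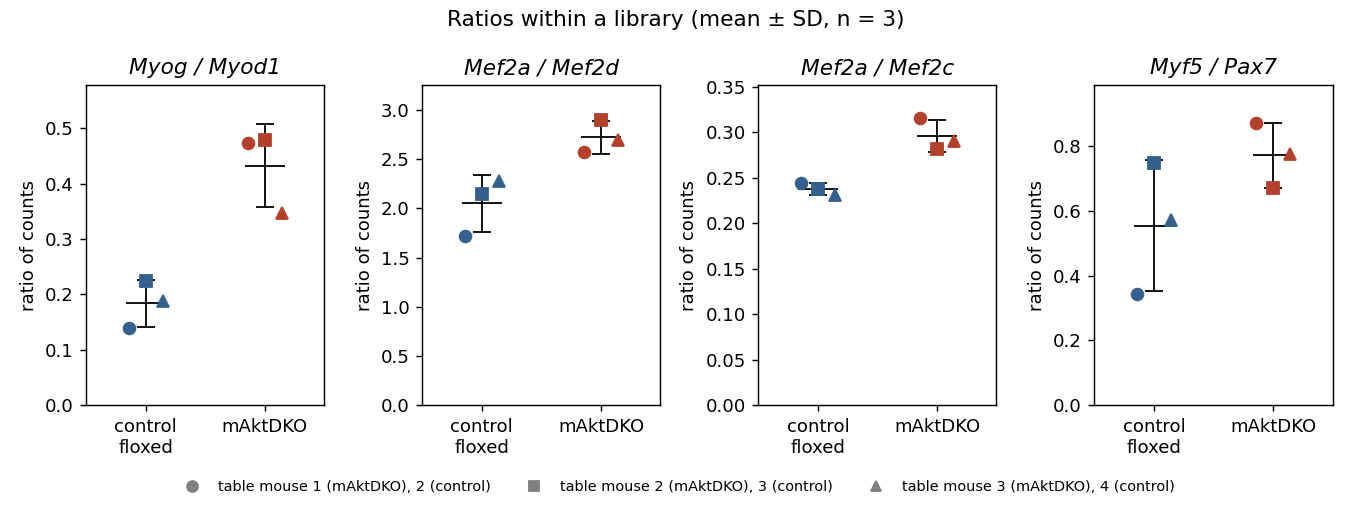
Ratios of member transcripts in every mouse (y axes from 0), with control mice in blue and mAktDKO mice in red. Ratios of Myog to Myod1 and of Mef2a to Mef2d or Mef2c do not overlap between the groups, and that of Myf5 to Pax7 does; lines and bars are means and SD (n = 3).

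Mef2c (ENSMUSG00000005583.16, chr13:83504034-83667080, plus strand) was the most abundant MEF2 transcript per length, and was at 508, 597 and 644 CPM in mAktDKO mice and at 608, 643 and 691 CPM in controls. It is also transcribed outside fibres, and 5 endothelial markers summed to 428 to 508 CPM in mAktDKO mice and 366 to 473 CPM in controls. The groups overlapped for Mef2c, with a log2 fold change of -0.15 (SE 0.11, 95% interval -0.39 to 0.092, edgeR adjusted p = 0.405).

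Mef2a (ENSMUSG00000030557.17, chr7:67231163-67372858, minus strand) was at 161, 169 and 188 CPM in mAktDKO mice and at 148, 153 and 159 CPM in controls. Every mAktDKO mouse was above every control, mAktDKO mouse 1 by a small margin. The log2 fold change of 0.17 (SE 0.085, 95% interval -0.027 to 0.36) did not pass in edgeR (adjusted p = 0.259). The gene overlaps Lysmd4 on the other strand, and the library kit marks strand, but the strand setting of the counting is not given in the sources used here.

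Mef2d (ENSMUSG00000001419.17, chr3:88142372-88172086, plus strand) was at 62.6, 58.2 and 69.5 CPM in mAktDKO mice and at 86.1, 71.3 and 69.8 CPM in controls. Every mAktDKO mouse was below every control, but mAktDKO mouse 3 and control mouse 4 were almost equal, and the groups overlapped when libraries were scaled by their totals alone. The log2 fold change was -0.26 (SE 0.11, 95% interval -0.50 to -0.014, edgeR adjusted p = 0.183), and -0.15 without control mouse 2. It overlaps the antisense gene 1700113A16Rik.

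The Mef2a to Mef2d ratio was 2.57, 2.90 and 2.70 in mAktDKO mice and 1.72, 2.15 and 2.28 in controls. The Mef2a to Mef2c ratio was 0.316, 0.282 and 0.291 against 0.244, 0.238 and 0.231. Neither ratio overlapped between the groups (exact permutation p = 0.1 for each, the smallest possible). Per kilobase of the longest transcript, Mef2a was 23.0% ± 0.82 of the MEF2 transcripts in mAktDKO mice and 19.2% ± 0.18 in controls (SD, n = 3). The groups overlapped for the Mef2c share (68.4% and 71.1%), the Mef2d share (8.69% and 9.72%) and the summed MEF2 level (136 and 145 CPM per kb).

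Six4 (ENSMUSG00000034460.9, chr12:73099609-73113456, minus strand) was at 39.8, 44.0 and 49.1 CPM in mAktDKO mice and at 48.2, 39.3 and 32.1 CPM in controls. The groups overlapped, with control mouse 2 inside the upper part of the mAktDKO range, and the log2 fold change was 0.15 (SE 0.15, 95% interval -0.18 to 0.48, edgeR adjusted p = 0.546). It was 0.014 without control mouse 4 and 0.31 without control mouse 2.

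**Figure D3:**
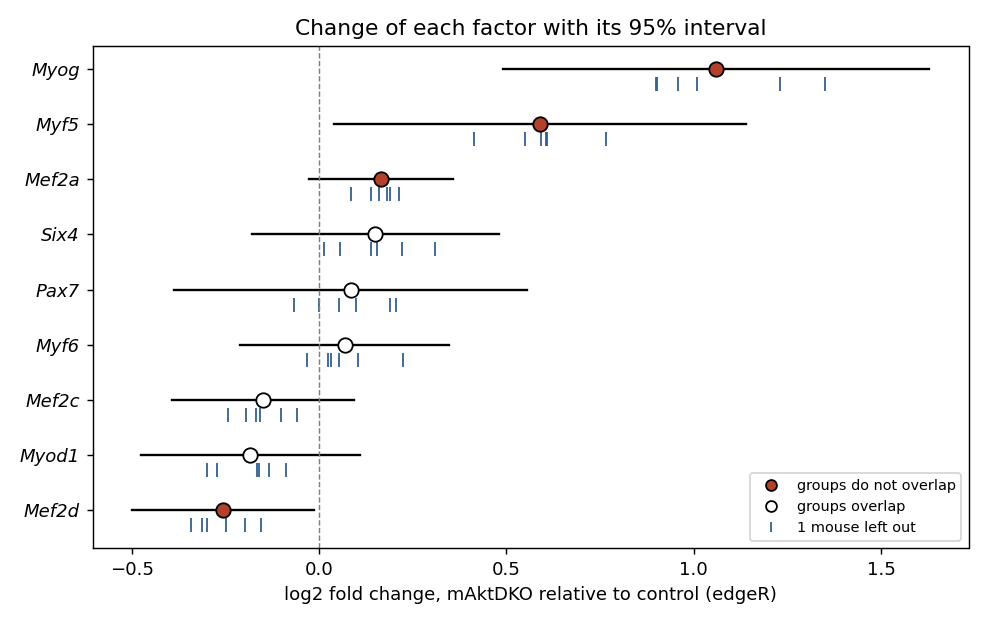
Log2 fold change of each factor, mAktDKO relative to control, with its 95% interval from edgeR's quasi-likelihood fit (x axis, log2), filled where the groups do not overlap, and blue ticks for the fits without 1 mouse. The intervals of Myog and Myf5 lie above 0 and that of Mef2d below 0 before adjustment.

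Compared per kilobase of the longest transcript, control levels ran from Mef2c (103 CPM per kb) through Myf6 (49.1), Mef2a (27.7), Myod1 (15.96), Mef2d (14.02), Six4 (5.85), Myog (3.67) and Myf5 (0.853) to Pax7 (0.566). Myod1 and Mef2d, Six4 and Myog, and Myf5 and Pax7 overlapped as neighbours in that order. In mAktDKO muscle Myog (7.64 CPM per kb) stood before Six4 (6.498), with overlapping ranges, and Myf5 (1.28) no longer overlapped Pax7 (0.600). The order depends on the length used. Over merged exons, control Mef2c was at 41.2 CPM per kb, below Myf6, control Mef2a was at 10.5, below Myod1 and Mef2d (12.6), and Six4 and Myog were level at 3.67.

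MRF partners and inhibitors, 17 of 18 listed genes tested, had 10 positive and 7 negative fold changes and 0 calls by edgeR or DESeq2. Of the 17, 5 had an unadjusted edgeR p under 0.05, against 24.5% of all genes. Their median log2 fold change was 0.11. That median was 0.0028 without mAktDKO mouse 1 and 0.025 without mAktDKO mouse 2. Tcf12, an E protein that pairs with MRFs, was at 59.7, 69.6 and 64.7 CPM in mAktDKO mice and at 44.6, 52.0 and 50.2 CPM in controls (log2 fold change 0.40, SE 0.093, edgeR adjusted p = 0.0616). Id2, which binds E proteins and keeps them from MRFs, was at 6.21, 8.27 and 4.59 CPM against 2.87, 3.21 and 3.70 CPM (0.97, SE 0.23, edgeR adjusted p = 0.0677). Both this partner and this inhibitor were higher in every mAktDKO mouse. Of the other E proteins listed, Tcf4 was also higher in every one (0.34), but the groups overlapped for Tcf3 (-0.038). They overlapped too for the other Id genes, Id1 (-0.16), Id3 (-0.021) and Id4 (0.15). Hes1, a Notch effector, was at 12.0, 11.0 and 11.5 CPM against 15.0, 13.9 and 15.0 CPM, lower in every mAktDKO mouse (-0.35, SE 0.10, edgeR adjusted p = 0.0943).

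MEF2 regulators, 16 of 17 tested, divided into 8 positive and 8 negative fold changes around a median of 0.0040, with 0 calls by edgeR or DESeq2. Of the 16, 4 had an unadjusted edgeR p under 0.05, close to the share of 24.5% over all genes. Vgll3, a cofactor of TEAD proteins, was at 10.1, 10.6 and 8.91 CPM in mAktDKO mice and at 5.38, 7.30 and 5.52 CPM in controls (0.71, SE 0.15, edgeR adjusted p = 0.0573). Ncoa2, a coactivator, differed by 0.37 (SE 0.091, edgeR adjusted p = 0.0684) and Mapk14, the p38 kinase that phosphorylates MEF2, by -0.18 (SE 0.078, edgeR adjusted p = 0.184). Hdac5, a class IIa deacetylase named after its values were seen, was at 54.9, 54.8 and 56.5 CPM against 87.3, 60.8 and 59.8 CPM. It was lower in every mAktDKO mouse, with a log2 fold change of -0.32 (edgeR adjusted p = 0.196) that was -0.12 without control mouse 2. Hdac4, of the same class, was also lower in every mAktDKO mouse (-0.18, edgeR adjusted p = 0.281), and -0.084 without control mouse 2. The groups overlapped for the class members Hdac7 (0.042) and Hdac9 (-0.11).

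Genes that act with Six4 were read from the same fit. Eya4, a cofactor of Six4, was at 47.2, 51.9 and 51.6 CPM in mAktDKO mice and at 30.9, 40.1 and 34.1 CPM in controls. Every mAktDKO mouse was higher, and the log2 fold change of 0.52 (SE 0.11) had an adjusted p of 0.0539 in edgeR and 0.00495 in DESeq2. Eya2 differed by the same amount (0.52, SE 0.16, edgeR adjusted p = 0.103). Dach2, a known repressor of Myog, was at 2.28, 2.64 and 2.26 CPM against 6.43, 6.42 and 2.80 CPM, so that 2 controls were high and control mouse 4 was close to the mAktDKO mice (-1.12, SE 0.31, edgeR adjusted p = 0.0849).

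**Figure D4:**
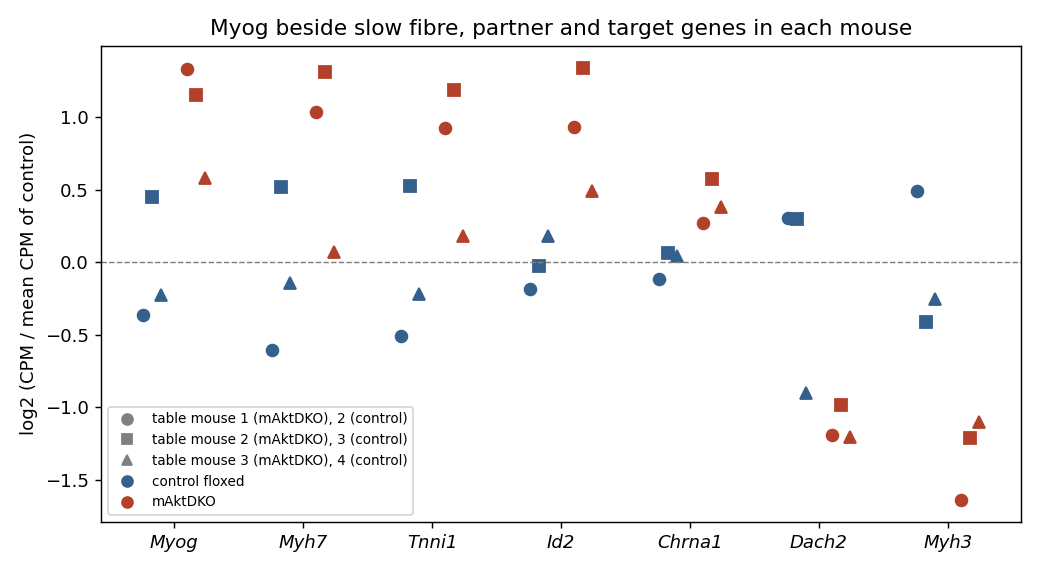
Myog beside slow-fibre, partner and target genes in each mouse, as the log2 ratio of CPM to the control mean (y axis), with control mice in blue and mAktDKO mice in red. Dach2 is lower and Chrna1 higher in every mAktDKO mouse, while Myh7 and Tnni1 overlap between the groups.

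Mdfi, Mef2b, Pax3 and Mymx, listed here among partners, regulators or targets, did not pass the filter on low counts. Genes that MRFs are known to activate, 13 of 14 tested, had 6 positive and 7 negative fold changes and a median of -0.0099, which ran from -0.22 without control mouse 4 to 0.16 without control mouse 2, so that its direction depended on single mice. Chrna1, an acetylcholine receptor subunit, was at 24.7, 30.6 and 26.7 CPM in mAktDKO mice and at 18.9, 21.4 and 21.1 CPM in controls (0.42, SE 0.11, edgeR adjusted p = 0.0752). Chrnb1, another subunit, was at 35.1, 41.8 and 36.8 CPM against 23.5, 28.1 and 29.7 CPM (0.49, SE 0.11, edgeR adjusted p = 0.0621). Both of these subunits were higher in every mAktDKO mouse, but the groups overlapped for the subunits Chrnd (log2 fold change 0.062, SE 0.21) and Chrng (-0.0099, SE 0.64, at most 0.839 CPM). Myh3, the embryonic myosin, was lower in every one, at 6.91, 9.29 and 10.01 CPM against 30.3, 16.2 and 18.1 CPM (-1.30, SE 0.24, edgeR adjusted p = 0.0474, DESeq2 adjusted p = 1.06e-05). Without control mouse 2, Myh3 differed by -0.97. Myh3 was the 1 gene of this list with an edgeR adjusted p under 0.05, a threshold at which 0.915% of all genes were lower.

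The Chrna1 stretch is shown because it holds several E-boxes, in RefSeq (GRCm38.p6) at chr2:73580339-73580588 on the minus strand, with capitals as above.
Chrna1 promoter: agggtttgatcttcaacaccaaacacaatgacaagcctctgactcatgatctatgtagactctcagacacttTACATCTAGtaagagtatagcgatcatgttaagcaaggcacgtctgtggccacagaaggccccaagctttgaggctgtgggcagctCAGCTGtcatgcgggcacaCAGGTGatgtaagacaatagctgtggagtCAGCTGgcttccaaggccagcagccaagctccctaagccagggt
E-boxes begin at -92, -73 and -44 and a CTANNNNTA match on the other strand at -178, with no overlap.

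Known MEF2 targets, 11 of 11 tested, had 4 positive and 7 negative fold changes and a median of -0.16. That median was -0.11 without control mouse 2 and -0.022 with libraries scaled by their totals alone. Mb, which encodes myoglobin, was at 811, 769 and 895 CPM in mAktDKO mice and at 2821, 1783 and 1756 CPM in controls. The groups were far apart, with a log2 fold change of -1.36 (SE 0.18, adjusted p = 0.0206 in edgeR and 4.5e-14 in DESeq2), and -1.10 without control mouse 2. Mb was the 1 gene of this list with an edgeR adjusted p under 0.05, a threshold at which 0.915% of all genes were lower. Myom1, an M-band protein, differed by -0.42 (SE 0.13, adjusted p = 0.101 in edgeR and 0.0151 in DESeq2) and Srpk3, a muscle kinase, by -0.28 (SE 0.11, edgeR adjusted p = 0.168). Without control mouse 2, Myom1 differed by -0.28 and Srpk3 by -0.16. Fast-fibre genes listed as Six4 targets, 7 of 7 tested, all had a negative fold change, with a median of -0.22, and 5 did not overlap between the groups, against 16.6% of all genes that were lower in this way. Tnni2, fast troponin I, was at 2458, 2068 and 2516 CPM against 4083, 3289 and 3260 CPM (-0.59, SE 0.13, adjusted p = 0.0557 in edgeR and 1.28e-04 in DESeq2). Pvalb, a calcium buffer of fast fibres, differed by -0.41 (SE 0.12, adjusted p = 0.0966 in edgeR and 0.00982 in DESeq2), and Aldoa, a glycolytic enzyme, by -0.37 (SE 0.12, edgeR adjusted p = 0.114). These targets share genes with 9 fast-fibre markers, all with negative fold changes, whose sum was 108974 to 120116 CPM in mAktDKO mice and 123133 to 133482 CPM in controls. With libraries scaled by their totals alone, which moved the median of all genes to 0.156, the medians were -0.089 for the 7 targets and -0.065 for the 9 markers, and Myh4 (0.12) and Actn3 (0.024) turned positive.

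**Figure D5:**
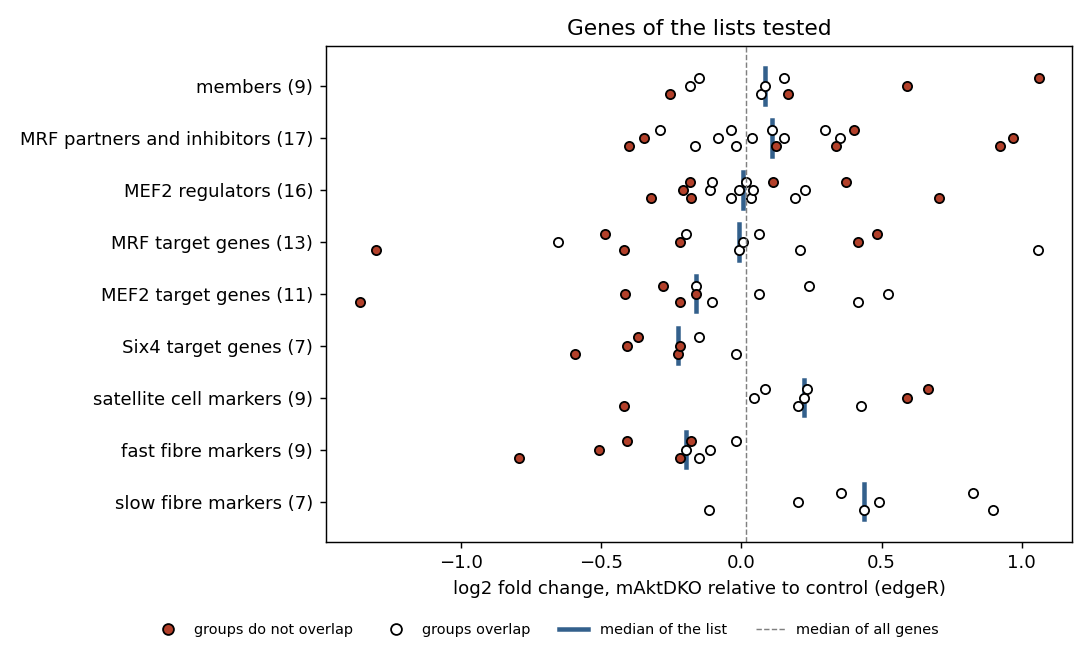
Log2 fold change (x axis, edgeR, mAktDKO relative to control) of the tested genes of each list, filled where the groups do not overlap, with list medians and the all-gene median of 0.017. The MRF target list spreads to both sides, and the Six4 targets and the fast-fibre markers lie below 0 with TMM scaling, though Myh4 and Actn3 turn positive when libraries are scaled by their totals alone.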

How the data were processed

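RNA-seq reads from whole EDL of 3 mAktDKO and 3 control mice were processed by the authors with bcl2fastq, STAR 2.6.1b and RSEM 1.3.1 (versions from the submitters' processing notes; the methods name another STAR release). The deposited values are estimated counts per gene on mm10 (GRCm38), not normalized; the authors' gene annotation is not given in the sources used here. Positions and lengths came from GENCODE vM21. Between 3.36% and 4.09% of values per library were not whole, and all were rounded. Genes passing filterByExpr with a minimum count of 10 were scaled by TMM and tested by edgeR 4.0.16's quasi-likelihood test in R 4.3.3, with Benjamini-Hochberg adjustment over all genes tested and a threshold of 0.01. DESeq2 1.42.0, other scalings, no filter, unrounded counts, a threshold of 0.05 and leaving out each mouse were alternatives. The code was tested on simulated data. Members and lists were chosen with earlier results of these data known. The text names all 9 members, Akt1, Akt2 and at most the 3 genes of each list with the smallest p. Hdac4, Hdac5, Hdac7, Hdac9, Myh4, Actn3, Chrnd and Chrng were added after their values were seen. So were Tnnc1, Tnnt1, Myl2, Myl3, Id1, Id3, Id4, Tcf3 and Tcf4. Table columns number the control mice 2 to 4, whereas the labels number them 1 to 3, so control columns were assigned to the group only. Mymk and Mymx were matched by their older symbols. A summary over the relatives and cofactors of Six4 is not reported here.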

Additional observations from a re-analysis of the deposited data

How the results depend on the processing

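Myog had a positive fold change in every setting, from 0.90 to 1.35 when single mice were left out, with an edgeR adjusted p of 0.0827 to 0.25 there. Of all genes tested, 3 were called, against 32 without the low-count filter, 329 with DESeq2, 152 at an adjusted p under 0.05, and 0 to 8 with single mice left out. The fits with 0 calls, each without 1 mAktDKO mouse, left 2441, 1871 and 2794 genes below 0.05 before adjustment (unadjusted p), and the fit with 8 was without control mouse 2. Of the 9 factors 0 were called by edgeR at 0.01 and 1, Myog, by DESeq2; without the low-count filter edgeR put Myog at an adjusted p of 0.0427. With single mice left out, Pax7 ranged from -0.066 to 0.21, Myf6 from -0.033 to 0.22, Six4 from 0.014 to 0.31, Myf5 from 0.41 to 0.77, Mef2a from 0.084 to 0.21, Mef2c from -0.24 to -0.060, Myod1 from -0.30 to -0.089 and Mef2d from -0.34 to -0.15. Pax7 turned to -0.066 without mAktDKO mouse 2 and to -0.0012 without control mouse 3, and Myf6 to -0.033 without control mouse 4, so neither direction holds; the cause was not tested. Scaling by library totals moved the all-gene median log2 fold change from 0.017 to 0.156 and turned no member, but Mef2c was then -0.017, Myod1 -0.042, Mef2d -0.12, Mef2a 0.30 (edgeR adjusted p = 0.0718), Six4 0.29, Pax7 0.23, Myf6 0.21, Myf5 0.73 and Myog 1.20, with a median of 0.23, and positive fold changes then numbered 13 of 17 MRF partners and inhibitors, 12 of 16 MEF2 regulators, 7 of 13 MRF targets, 5 of 11 MEF2 targets, 1 of 7 Six4 targets, 2 of 9 fast-fibre markers and 7 of 7 slow-fibre markers. No paired analysis was possible because numbers 2 to 4 on the control columns match no labelled replicate with certainty. Myf5 and Pax7 rest on 19 to 70 counts per mouse, which limits their precision.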

Other observations

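Transcripts of cells outside the fibres were also measured. Of 5 markers of fibro-adipogenic cells, the connective tissue progenitors of muscle, all had a positive fold change, and their sum was 15301 to 19753 CPM in mAktDKO mice and 6383 to 15600 CPM in controls. Col1a1, a collagen gene, made up most of this sum, at 14402 to 18884 CPM in mAktDKO mice and 5899 to 14935 CPM in controls, and the list's median log2 fold change of 0.57 was 0.22 without control mouse 2 and 0.28 without mAktDKO mouse 2. Dcn, which encodes decorin, was at 587, 670 and 699 CPM against 372, 469 and 477 CPM (log2 fold change 0.57, SE 0.12, adjusted p = 0.0539 in edgeR and 0.00034 in DESeq2). Macrophage markers, 4 of 4 with a positive fold change, summed to 72.4 to 94.5 CPM against 46.8 to 80.9 CPM. Their median was 0.44, and 0.22 without control mouse 2. Adipocyte markers, also 4 of 4, summed to 19.7 to 66.5 CPM against 13.8 to 33.1 CPM. Their median of 1.099, the largest of these lists, was 0.677 without mAktDKO mouse 2 and 1.46 without mAktDKO mouse 3. All 3 sums overlapped between the groups, and edgeR called 0 of these genes at 0.01. DESeq2 called Dcn as higher, as it did 0.814% of the genes to which it gave an adjusted p. At an unadjusted edgeR p under 0.05, 2 of 5 fibro-adipogenic, 2 of 4 macrophage and 3 of 4 adipocyte markers were higher. None was lower at that p, where 11.4% of all genes were higher and 13.1% lower. Other lists had smaller medians, 0.26 for Schwann cell markers (4 of 4 positive), 0.036 for endothelial markers (3 positive, 2 negative) and -0.057 for smooth muscle markers (1 positive, 3 negative), the last of which turned to 0.084 with library totals.

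Among fast myosins, Myh1 was at 11522, 12072 and 12327 CPM in mAktDKO mice and at 17807, 16000 and 17250 CPM in controls, lower in every mAktDKO mouse (-0.51, SE 0.10, adjusted p = 0.0539 in edgeR and 2.05e-06 in DESeq2). Myh2 was at 3019, 3463 and 4049 CPM against 9177, 4440 and 4624 CPM (-0.79, SE 0.26, edgeR adjusted p = 0.125), with control mouse 2 far above the other two, and the fold change was -0.37 without it.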
